A study of Mus musculus with 16 samples.

Results

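The genes described here carry out glycolysis or respond to low oxygen, and they were taken from a fixed list of 45 symbols by requiring a row of the expression table to bear exactly that symbol. Of the 45 genes listed, 41 were found among the 18132 genes of the table, and HK2, GPI1, LDHB and BHLHE40 were not analysed here. RNA of primary fibroblasts, taken from inguinal mammary glands of female 129S6 mice aged 8 to 10 weeks, was hybridized to 16 Illumina Mouse 8 arrays, which read each transcript as the brightness of its probe. The mice were MEKK1+/+ (wild type) or MEKK1-/-, lacking the kinase MEKK1 that MAP3K1 encodes and that acts at the top of a MAP kinase cascade. All cells were grown in DMEM with fetal bovine serum, and were either left in that medium (untreated) or exposed for 8 h to tumor-conditioned medium (TCM), the same medium after culture of MDA-MB-231, a human line of breast cancer cells. The 4 groups had 4 arrays each, numbered as replicates 1 to 4. The replicates are cultures, and the study's text gives fewer mice per genotype than a group has arrays, so some arrays of a group share a mouse. The mouse behind each culture is not named, so that sharing could not be fitted, the spread between arrays may be partly technical, and p values over the 4 arrays of a group are too small as statements about mice.

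Glycolysis breaks glucose down to pyruvate in the cytosol, and cells that reduce pyruvate to lactate can keep glycolysis running without oxygen. When oxygen is scarce, the prolyl hydroxylases EGLN1 and EGLN3 no longer mark HIF1A for destruction, and the stabilized factor binds with ARNT to short DNA motifs and raises the transcription of glucose transporters, glycolytic enzymes and many other genes. Fibroblasts in tumors are known for high glycolysis and for releasing lactate, and HIF1A itself is controlled mainly through its protein, which arrays do not measure.

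In the main fit, which pairs no arrays, exposure to TCM raised a few named genes of this group and left most of its core enzymes without a detected change. With the replicate numbers as a block within genotype, a pairing not established in MEKK1+/+ cells, 15 members were called in the average over genotypes. In cells labelled MEKK1-/- that block added calls of HK1, PFKM and P4HA2 as higher and of ANKRD37 as lower. The share of all genes called with that block is not given here, so these calls have no background beside them. ENO2, an enolase isoform of the lower part of glycolysis, rose 2.33-fold in MEKK1+/+ cells and 2.62-fold in cells labelled MEKK1-/-. SLC2A3, a high-affinity glucose transporter, rose 1.74-fold and 1.78-fold. MXI1, a repressor that competes with MYC for its partner, passed the threshold in both genotypes as well. In cells labelled MEKK1-/- it did not with the replicate numbers as a block (adjusted p = 0.0572 from limma). DDIT4, an inhibitor of mTORC1, passed the threshold in MEKK1+/+ cells. The calls of both genes within a genotype depended on processing. In MEKK1+/+ cells MXI1 was called under 6 and DDIT4 under 9 of the 13 other settings. With 1 of 16 arrays left out they were called in 10 and 5 fits. No member passed the threshold between genotypes or in the interaction of genotype with TCM.

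The members' promoters were read for the core of the hypoxia response element, the motif that HIF1A and ARNT bind. The windows are from RefSeq on GRCm38.p6 and run 300 bases, from 250 before to 50 after an annotated transcription start. All 41 members were matched to RefSeq, 39 by symbol and 2 by an older symbol, and 37 of them had at least 1 window, while SLC2A3, BNIP3L, NDRG1 and STC1 had none. The letters ACGTG and GCGTG were searched on both strands, so that a CACGTG palindrome counts once per strand. A core was found in any window of 34 members (91.9%), compared with 46.7% of the 27025 genes with a window and 70.6% of the 5414 such genes that also had signal on every array. Many of the members are known HIF1A targets, and a match is a description of these letters, not a bound site. These windows are shown because they set the gene that rose most beside an oxygen sensor that fell, a core enzyme with many cores and no call, and a riser with several. The capitals mark the cores.
ENO2 promoter (chr6:124769624-124769923, minus strand): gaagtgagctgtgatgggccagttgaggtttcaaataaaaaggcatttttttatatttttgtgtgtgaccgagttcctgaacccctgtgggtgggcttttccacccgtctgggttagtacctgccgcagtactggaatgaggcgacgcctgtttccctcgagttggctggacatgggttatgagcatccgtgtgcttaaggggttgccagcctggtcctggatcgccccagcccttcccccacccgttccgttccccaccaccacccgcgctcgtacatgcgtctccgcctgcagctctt
EGLN1 promoter (chr8:124949205-124949504, minus strand): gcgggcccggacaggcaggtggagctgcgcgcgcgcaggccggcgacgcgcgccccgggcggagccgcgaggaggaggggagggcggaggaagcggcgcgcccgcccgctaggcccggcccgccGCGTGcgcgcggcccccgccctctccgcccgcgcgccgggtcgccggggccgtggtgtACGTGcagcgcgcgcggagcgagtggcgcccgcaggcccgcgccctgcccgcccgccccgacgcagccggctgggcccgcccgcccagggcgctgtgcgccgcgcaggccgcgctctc
LDHA promoter, window 1 (chr7:46845554-46845853, plus strand): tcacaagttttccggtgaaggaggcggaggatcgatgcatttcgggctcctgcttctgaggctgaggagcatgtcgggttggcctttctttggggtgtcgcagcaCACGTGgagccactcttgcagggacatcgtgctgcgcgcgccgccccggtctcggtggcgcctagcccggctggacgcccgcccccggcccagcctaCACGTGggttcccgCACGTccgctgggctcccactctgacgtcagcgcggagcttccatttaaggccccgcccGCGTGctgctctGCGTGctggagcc
P4HA2 promoter (chr11:54100674-54100973, plus strand): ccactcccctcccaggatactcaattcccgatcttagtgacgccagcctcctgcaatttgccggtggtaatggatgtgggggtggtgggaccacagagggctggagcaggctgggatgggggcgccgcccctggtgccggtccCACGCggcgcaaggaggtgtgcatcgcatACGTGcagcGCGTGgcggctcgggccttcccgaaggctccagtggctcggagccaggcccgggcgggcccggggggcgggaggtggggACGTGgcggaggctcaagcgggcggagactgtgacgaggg
The ENO2 window held 0 of either core. The EGLN1 window held 2 cores, the LDHA window 7 and the P4HA2 window 4. The other members with a window and no core were TPI1 and CAR12. Of the 8 members called in the average that had a window, 7 held a core, all but ENO2, beside 91.9% of all members with a window.

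The deposited intensities had array medians from 114 to 170.1, and their log2 values were quantile normalized so that all arrays shared a distribution. The level of an array without signal was taken as the 99th percentile of its 1075 olfactory receptor genes, and lay between 7.20 and 7.34 on the log2 scale. By that measure 29 members had signal on every array, and PGK1, PGM1, SLC16A1, BNIP3, ERO1L and STC1 had none on any. The remaining 6 passed it on some arrays: ALDOC on 15, SLC16A3 on 13, EGLN1 on 12, PFKFB3 on 3, CAR9 on 2 and CAR12 on 1. Of the 12 fibroblast markers in the table, 11 had signal on every array. The targeted gene MAP3K1 had log2 differences of 0.53 in untreated cells and 0.33 with TCM, in each case higher on the arrays labelled MEKK1-/- (adjusted p = 0.465 and 0.605 from limma). All 4 untreated arrays labelled MEKK1-/- were above all 4 of MEKK1+/+ (exact permutation p = 0.0286). Where the MAP3K1 probe lies relative to the deleted stretch is not given in the sources used here, so the value does not check the deletion, and genotype rests on the labels throughout.

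In MEKK1+/+ cells 4 of the 41 members rose with TCM (SLC2A3, ENO2, DDIT4 and MXI1) and 0 fell at an adjusted p of 0.05 by limma, where 2.27% of all genes rose and 2.75% fell. At an unadjusted p of 0.05, 12 members passed, beside 16.8% of all genes. In cells labelled MEKK1-/- 3 members rose (SLC2A3, ENO2 and MXI1) and 0 fell, where 2.18% of all genes rose and 2.51% fell, and 7 members passed the unadjusted level, beside 16.2% of all genes. The replicate numbers were taken as pairs of untreated and TCM arrays in that genotype. With the pair as a block 6 members were called there, namely SLC2A3, ENO2, HK1, PFKM and P4HA2 as higher and ANKRD37 as lower. The shares of all genes just given are from the fit without that block, and the share with it is not given here. Averaged over both genotypes, 7 members rose and 2 fell, where 6.03% of all genes rose and 6.44% fell. Of the 29 members with signal on every array 7 were called in that average, beside 25.8% of the 6923 genes with such signal, so the share of such members called was near the background. The median log2 difference of the members with TCM was -0.01 in MEKK1+/+ cells, 0.04 in cells labelled MEKK1-/- and 0.01 on average, and that of all genes was 0.00 each time.

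**Figure D1:**
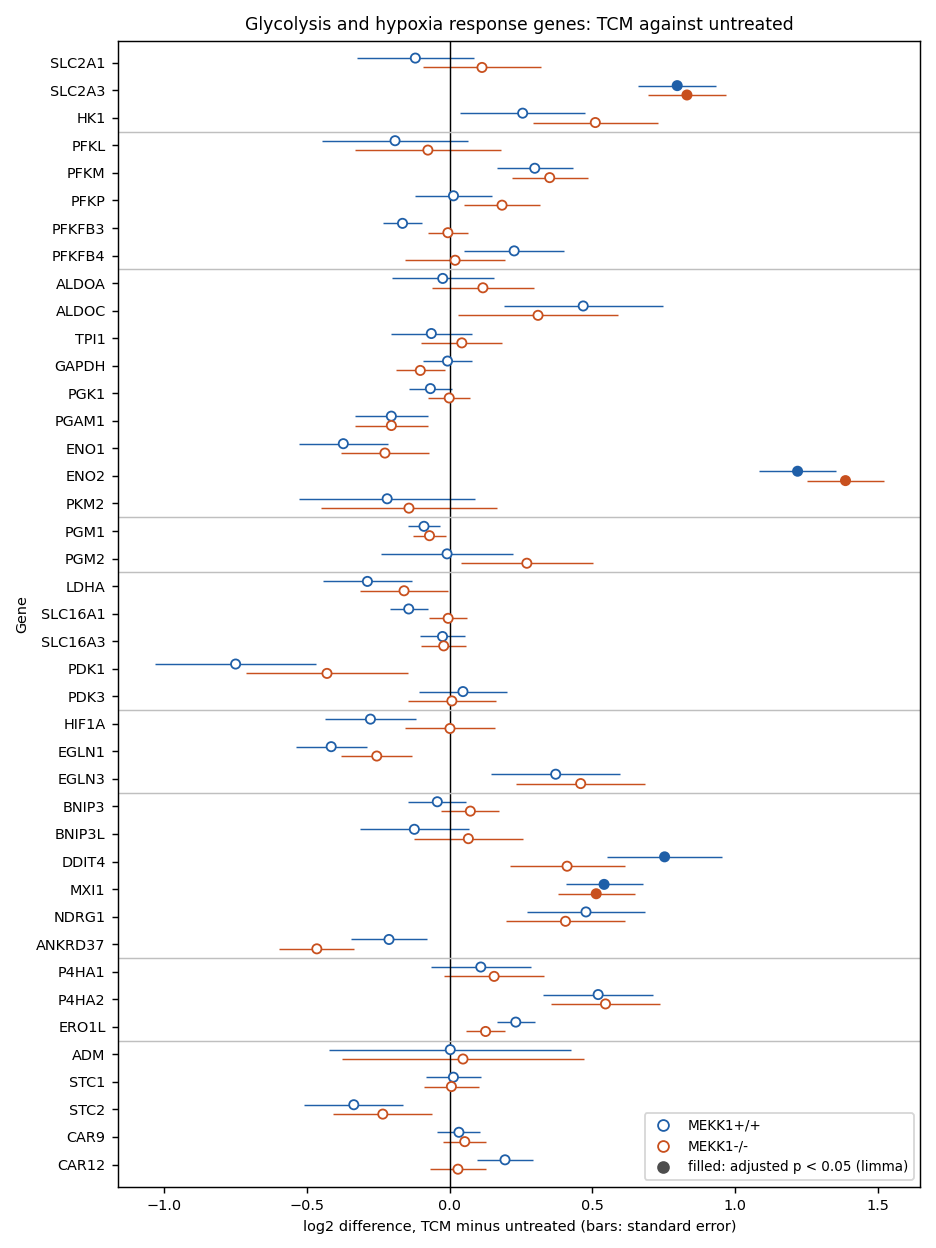
Log2 difference of TCM minus untreated cells for the 41 genes, grouped by role from glucose entry (top) to secreted and membrane proteins (bottom). Points are limma estimates from 4 arrays a group, bars are standard errors, blue is MEKK1+/+ and orange is MEKK1-/-, and filled points passed an adjusted p of 0.05. ENO2 (1.22 and 1.39) and SLC2A3 (0.80 and 0.83) lie farthest to the right in both genotypes, while most enzymes lie near 0.

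Glucose entry was described by SLC2A1 and SLC2A3, which carry glucose across the plasma membrane, and by HK1, the hexokinase that phosphorylates it. SLC2A3 had log2 levels of 7.62, 7.59, 7.50 and 7.41 on untreated MEKK1+/+ arrays, in the order of replicates 1 to 4, and 8.15, 8.43, 8.61 and 8.11 with TCM. On the arrays labelled MEKK1-/- it had 8.05, 7.70, 7.90 and 7.72 untreated and 9.09, 8.45, 8.60 and 8.56 with TCM. In both genotypes all 4 arrays with TCM lay above all 4 untreated ones. The log2 difference was 0.80 in MEKK1+/+ cells (standard error 0.14, adjusted p = 0.00367 from limma) and 0.83 in cells labelled MEKK1-/- (adjusted p = 0.00277), with an exact permutation p of 0.0286 in each, the smallest that 4 arrays against 4 allow. Its interaction with genotype was 0.03 (standard error 0.19).

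SLC2A1, the widely expressed transporter, was not called. Its levels were 12.84, 12.52, 12.84 and 13.09 on untreated MEKK1+/+ arrays and 12.61, 12.36, 13.07 and 12.75 with TCM, and 12.02, 13.09, 12.68 and 12.50 on untreated arrays labelled MEKK1-/- and 13.06, 12.51, 12.71 and 12.46 with TCM. The groups overlapped in both genotypes. Averaged over genotype, TCM over untreated was 0.998 as a ratio, with a 95% interval from 0.804 to 1.24 and a direction that turned under z-score scaling. HK1 had an averaged log2 difference of 0.38 (adjusted p = 0.139 from limma), and its lowest array with TCM was MEKK1+/+ replicate 2, at 7.96 beside 9.00, 9.00 and 9.24 on the other 3. Without that array the averaged difference of HK1 was 0.52 (adjusted p = 0.00255), and it was called under no other single array left out and under 2 of the 13 other settings.

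The phosphofructokinase step, which commits sugar to glycolysis, was read by 3 subunit genes (PFKL, PFKM and PFKP) and by PFKFB3 and PFKFB4, whose products set the level of its activator. PFKM, the muscle-type subunit, had 9.62, 9.47, 9.61 and 9.79 on untreated MEKK1+/+ arrays and 9.81, 10.01, 9.78 and 10.09 with TCM. In cells labelled MEKK1-/- it had 8.94, 9.47, 9.51 and 9.48 untreated and 9.38, 9.88, 9.83 and 9.71 with TCM. Each pair of groups overlapped through 1 array, replicate 3 with TCM in MEKK1+/+ cells and replicate 1 with TCM in the others. In cells labelled MEKK1-/-, where the replicate numbers were taken as pairs, each replicate was higher with TCM than untreated. With the pair as a block PFKM was called higher in that genotype. Averaged over genotype PFKM rose by 0.32 on the log2 scale (1.25-fold, adjusted p = 0.0334 from limma, exact permutation p = 0.00449). That call was lost when any of 8 arrays was left out: MEKK1+/+ untreated replicate 1, 2 or 3, MEKK1+/+ with TCM replicate 2 or 4, or MEKK1-/- with TCM replicate 2, 3 or 4 (adjusted p up to 0.0716).

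The other 4 genes of this step were not called, with averaged log2 differences from -0.13 (PFKL) to 0.12 (PFKFB4). PFKFB3, the inducible bifunctional enzyme, stayed close to the no-signal level, at 7.15, 7.28, 7.20 and 7.07 on untreated MEKK1+/+ arrays and 7.15, 6.90, 6.89 and 7.09 with TCM. On arrays labelled MEKK1-/- it read 7.25, 7.29, 7.23 and 7.20 untreated and 7.29, 7.10, 7.29 and 7.26 with TCM. All 16 values fell in a narrow band, and only 3 arrays were above the no-signal level.

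In the lower part of glycolysis ENO2 stood apart from the other 8 genes. The enolases convert phosphoglycerate to phosphoenolpyruvate, and ENO2 is the isoform best known from neurons. It had 8.54, 8.86, 9.02 and 9.08 on untreated MEKK1+/+ arrays and 10.26, 10.37, 9.73 and 10.04 with TCM. With the MEKK1-/- label it had 8.83, 8.70, 8.67 and 8.62 untreated and 10.05, 9.97, 10.04 and 10.31 with TCM. Every array with TCM was above every untreated array, whatever the genotype. The log2 difference was 1.22 in MEKK1+/+ cells (standard error 0.13, adjusted p = 0.000223 from limma) and 1.39 in cells labelled MEKK1-/- (adjusted p = 8.59e-05), with an exact permutation p of 0.0286 in each. Averaged over genotype it was 1.30, or 2.47-fold with a 95% interval from 2.14 to 2.84 (adjusted p = 1.44e-06 from limma). The interaction was 0.17 with a standard error of 0.19.

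The remaining 8 genes of that stretch (ALDOA, ALDOC, TPI1, GAPDH, PGK1, PGAM1, ENO1 and PKM2) had averaged log2 differences from -0.30 (ENO1) to 0.39 (ALDOC), and 0 of them passed the threshold. PGK1 had no signal on any array, so its missing call says nothing of its level. ENO1, the general enolase, went the other way from ENO2 in its estimate, with 14.47, 14.24, 14.40 and 14.52 on untreated MEKK1+/+ arrays and 14.07, 13.49, 14.26 and 14.32 with TCM. In cells labelled MEKK1-/- ENO1 had 13.76, 14.25, 14.20 and 14.17 untreated and 13.79, 14.002, 13.97 and 13.72 with TCM. The groups overlapped in both genotypes, and the averaged difference of -0.30 had an adjusted p of 0.0959 from limma. Without untreated MEKK1-/- replicate 1 it was -0.36 (adjusted p = 0.0375). ALDOC reached 0.53 without untreated MEKK1-/- replicate 2 (adjusted p = 0.0419), and PGAM1 -0.27 without MEKK1+/+ replicate 4 with TCM (adjusted p = 0.0346). GAPDH, the dehydrogenase often used as a loading reference, had 14.46, 14.29, 14.43 and 14.45 on untreated MEKK1+/+ arrays and 14.32, 14.25, 14.47 and 14.55 with TCM, and 14.15, 14.59, 14.42 and 14.45 on untreated arrays labelled MEKK1-/- and 14.29, 14.33, 14.35 and 14.23 with TCM. Its groups overlapped throughout, and its averaged ratio was 0.962 (95% interval from 0.880 to 1.05), a direction that turned with z-scores. The phosphoglucomutases PGM1 and PGM2, which link glycolysis to glycogen, had averaged log2 differences of -0.08 and 0.13 and were not called, and PGM1 had no signal on any array.

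The fate of pyruvate and lactate was read by LDHA, the lactate dehydrogenase subunit that favors lactate, by the lactate carriers SLC16A1 and SLC16A3, and by PDK1 and PDK3, kinases that shut pyruvate dehydrogenase. None of the 5 was called, and 4 of the 5 averaged differences were below 0, though SLC16A1 had no signal on any array. LDHA had 14.68, 14.31, 14.58 and 14.73 on untreated MEKK1+/+ arrays and 14.24, 14.002, 14.54 and 14.36 with TCM. The arrays labelled MEKK1-/- gave 13.79, 14.57, 14.50 and 14.37 untreated and 14.17, 14.08, 14.31 and 14.03 with TCM. The groups overlapped, with the untreated MEKK1-/- replicate 1 the lowest of all 16 arrays. The averaged log2 difference of LDHA was -0.22 (adjusted p = 0.243 from limma). Without that 1 array it was -0.31 (adjusted p = 0.0245), and it was called under no other array left out and none of the 13 other settings.

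PDK1 showed the same dependence more strongly. It had 9.97, 9.57, 9.81 and 9.77 on untreated MEKK1+/+ arrays and 9.04, 8.81, 9.26 and 9.01 with TCM, so all 4 arrays with TCM lay below all 4 untreated ones. On arrays labelled MEKK1-/- it had 8.00, 9.82, 9.48 and 9.47 untreated and 8.44, 9.11, 8.75 and 8.75 with TCM, where replicate 1 was lowest in each treatment and made the groups overlap. The log2 difference was -0.75 in MEKK1+/+ cells (adjusted p = 0.168 from limma, exact permutation p = 0.0286) and -0.43 in cells labelled MEKK1-/- (adjusted p = 0.535). The averaged difference was -0.59 (adjusted p = 0.0705). Without the untreated MEKK1-/- replicate 1 PDK1 fell by 0.79 on average (adjusted p = 0.000162) and fell by 0.83 in cells labelled MEKK1-/- (adjusted p = 0.00617). It was called lower on average under 4 of the 13 other settings and under no other single array left out.

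**Figure D2:**
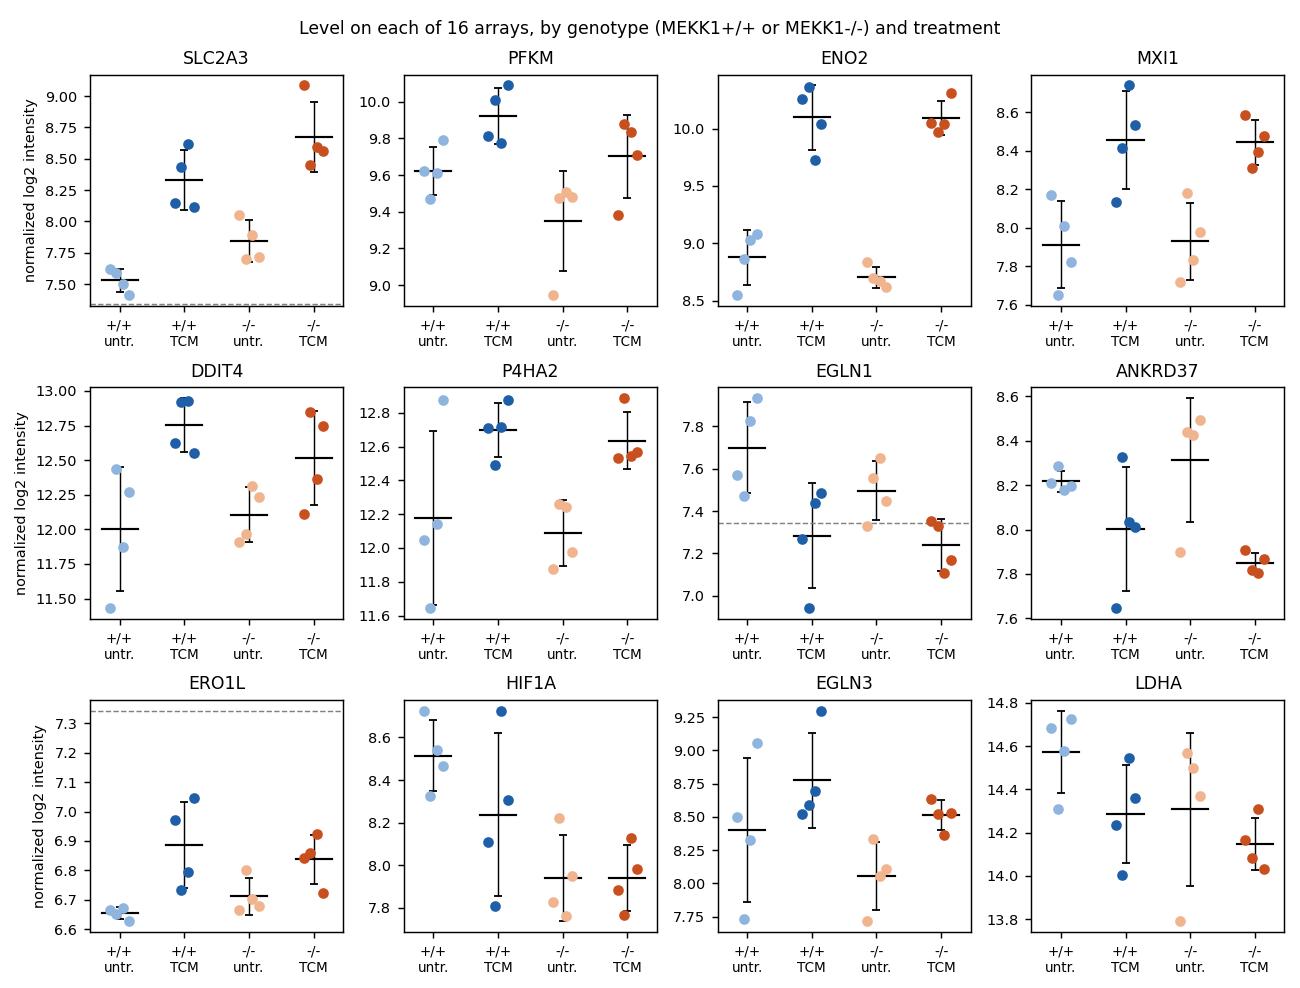
Normalized log2 intensity on each of the 16 arrays for the 9 genes called in the average over genotypes and for HIF1A, EGLN3 and LDHA. Points are arrays, wide bars are group means, error bars are 1 SD of 4 arrays, and the dashed line is the highest no-signal level of any array (7.34), drawn where it falls in range. ENO2 with TCM lies wholly above untreated in both genotypes, and ERO1L lies below the dashed line on every array.

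Oxygen sensing was described by HIF1A, EGLN1 and EGLN3. EGLN1, the main prolyl hydroxylase of normal oxygen, had 7.57, 7.47, 7.82 and 7.93 on untreated MEKK1+/+ arrays and 7.27, 6.94, 7.44 and 7.49 with TCM. The arrays labelled MEKK1-/- read 7.33, 7.55, 7.65 and 7.45 untreated and 7.35, 7.33, 7.11 and 7.17 with TCM. The groups overlapped at their edges in both genotypes, and the low values lay at or under the no-signal level. Averaged over genotype EGLN1 fell by 0.34 on the log2 scale (adjusted p = 0.0186 from limma, exact permutation p = 0.00245), and it was called under all 13 other settings and with each single array left out. In MEKK1+/+ cells alone the difference was -0.42 (adjusted p = 0.0713) and in cells labelled MEKK1-/- it was -0.26 (adjusted p = 0.331).

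EGLN3, the hydroxylase that is itself induced by low oxygen, had 8.50, 7.74, 8.32 and 9.05 on untreated MEKK1+/+ arrays and 8.52, 8.59, 8.70 and 9.30 with TCM. Those labelled MEKK1-/- had 7.72, 8.33, 8.06 and 8.11 untreated and 8.63, 8.52, 8.36 and 8.53 with TCM. The latter groups did not overlap and the former did, with MEKK1+/+ replicate 4 the highest in each treatment. The averaged difference was 0.42 (adjusted p = 0.116 from limma), and 0.52 without the untreated MEKK1+/+ replicate 4 (adjusted p = 0.0193). HIF1A had averaged -0.14 with TCM (adjusted p = 0.556), and its array values are given with the comparison of genotypes.

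Among the hypoxia targets that act on mitochondria and growth, DDIT4 and MXI1 rose and ANKRD37 fell in the average, and NDRG1, BNIP3 and BNIP3L did not pass. DDIT4 had 11.43, 12.43, 11.88 and 12.27 on untreated MEKK1+/+ arrays and 12.62, 12.92, 12.93 and 12.55 with TCM. Those labelled MEKK1-/- had 11.91, 11.97, 12.31 and 12.24 untreated and 12.11, 12.85, 12.37 and 12.74 with TCM. The MEKK1+/+ groups did not overlap, and the others did. DDIT4 rose by 0.75 in MEKK1+/+ cells (adjusted p = 0.0434 from limma, exact permutation p = 0.0286) and differed by 0.41 in cells labelled MEKK1-/- (adjusted p = 0.336, exact permutation p = 0.114), and its averaged rise was 0.58, or 1.50-fold (adjusted p = 0.0121). The difference between genotypes in this response was -0.34 (standard error 0.28, adjusted p = 1.00). With 1 array left out, the MEKK1+/+ call stayed only without MEKK1+/+ untreated replicate 2 or 4, MEKK1-/- untreated replicate 1, or MEKK1-/- with TCM replicate 1 or 2, and it was lost without any of the other 11 (adjusted p up to 0.119).

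MXI1 had 8.17, 7.65, 8.01 and 7.82 on untreated MEKK1+/+ arrays and 8.13, 8.41, 8.74 and 8.53 with TCM. On arrays labelled MEKK1-/- it had 7.72, 8.18, 7.83 and 7.98 untreated and 8.59, 8.31, 8.39 and 8.48 with TCM. Replicate 1 alone made the MEKK1+/+ groups overlap, and the others were apart. The log2 difference was 0.54 in MEKK1+/+ cells (adjusted p = 0.0309 from limma, exact permutation p = 0.0571) and 0.51 in cells labelled MEKK1-/- (adjusted p = 0.0415, exact permutation p = 0.0286), and the averaged rise was 0.53, or 1.44-fold (adjusted p = 0.00168). The average kept its call with each array left out. The single-genotype calls did not: the MEKK1+/+ call was lost without replicate 2, 3 or 4 of either MEKK1+/+ group (adjusted p up to 0.102), and the MEKK1-/- call without MEKK1+/+ untreated replicate 3 or any array labelled MEKK1-/- other than untreated replicate 2 (adjusted p up to 0.119). It was lost there with the replicate block within genotype too (adjusted p = 0.0572), and a block over all arrays lost it in both genotypes (adjusted p = 0.0569 and 0.0730).

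ANKRD37, a small ankyrin repeat protein known as a HIF1A target, had 8.21, 8.29, 8.18 and 8.20 on untreated MEKK1+/+ arrays and 7.65, 8.33, 8.03 and 8.01 with TCM. On arrays labelled MEKK1-/- it had 7.90, 8.44, 8.42 and 8.49 untreated and 7.91, 7.82, 7.80 and 7.87 with TCM. A single array made each pair of groups overlap, MEKK1+/+ replicate 2 with TCM and MEKK1-/- untreated replicate 1. Averaged over genotype ANKRD37 fell by 0.34 on the log2 scale (adjusted p = 0.0243 from limma, exact permutation p = 0.00816). The call was lost without MEKK1-/- untreated replicate 3 or 4 (adjusted p = 0.0539 and 0.0551). NDRG1, a stress-responsive differentiation gene, had an averaged log2 difference of 0.44 (adjusted p = 0.0652) and was called higher under 5 of the 13 other settings and without any of 4 arrays, untreated MEKK1+/+ replicate 4, MEKK1+/+ replicate 1 with TCM, and MEKK1-/- replicate 2 in either treatment (adjusted p from 0.0347 to 0.0477). Of the mitophagy receptors BNIP3L had -0.03, and BNIP3, which had no signal on any array, had 0.01.

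The collagen and disulfide enzymes were P4HA1 and P4HA2, catalytic subunits of the prolyl hydroxylase that stabilizes collagen, and ERO1L, an oxidase of the endoplasmic reticulum. P4HA2 had 12.05, 11.64, 12.14 and 12.88 on untreated MEKK1+/+ arrays and 12.71, 12.49, 12.71 and 12.88 with TCM. In cells labelled MEKK1-/- the values were 11.87, 12.26, 12.24 and 11.98 untreated and 12.54, 12.89, 12.55 and 12.57 with TCM. The MEKK1-/- groups were apart, and untreated replicate 4 made the MEKK1+/+ groups overlap. Averaged over genotype P4HA2 rose by 0.53, or 1.45-fold (adjusted p = 0.0155 from limma, exact permutation p = 0.00449). P4HA1 had 0.13 (adjusted p = 0.631).

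ERO1L was called higher by 0.18 on average (adjusted p = 0.0202 from limma), from 6.66, 6.65, 6.67 and 6.63 to 6.97, 6.73, 6.79 and 7.04 on MEKK1+/+ arrays and from 6.66, 6.80, 6.70 and 6.68 to 6.84, 6.86, 6.92 and 6.72 on arrays labelled MEKK1-/-. All 16 values were below the no-signal level, so this small difference was measured where genes without signal lie. The secreted and membrane targets (ADM, STC1, STC2, CAR9 and CAR12) gave 0 calls, with averaged differences from -0.29 (STC2) to 0.11 (CAR12). STC1 had no signal on any array, and CAR9 and CAR12 on few. STC2, the secreted stanniocalcin, fell by 0.38 without MEKK1+/+ replicate 2 with TCM (adjusted p = 0.0126 from limma) and fell by 0.37 without MEKK1-/- replicate 1 with TCM (adjusted p = 0.0269).

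On the values as deposited, without normalization between arrays, the averaged calls of SLC2A3, ENO2 and EGLN1 were kept and those of the other 6 genes were lost. There DDIT4 differed by 0.34 (adjusted p = 0.184 from limma), MXI1 by 0.34, P4HA2 by 0.30, PFKM by 0.09, ERO1L by 0.05 and ANKRD37 by -0.52, where the median of all genes was -0.15.

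**Figure D3:**
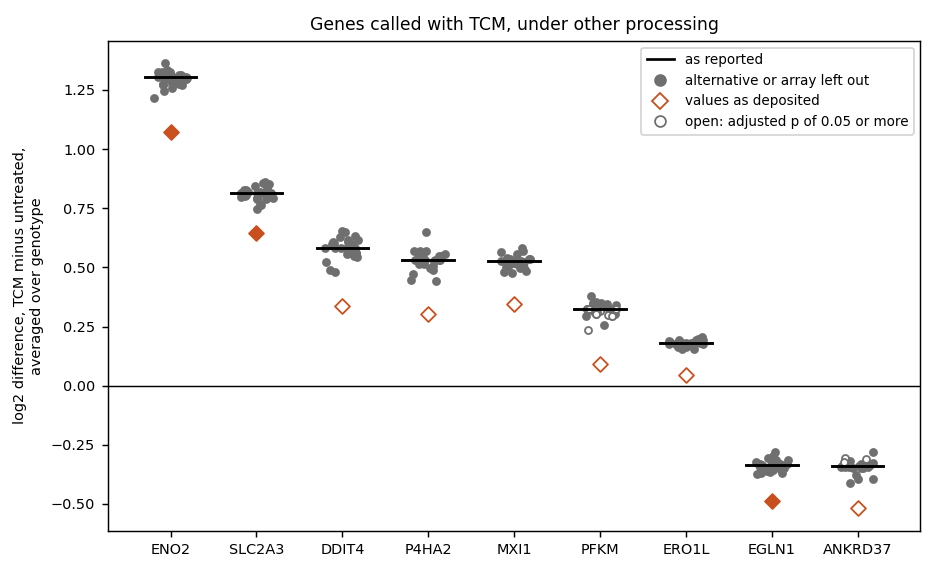
Log2 difference of TCM minus untreated, averaged over genotype, for the 9 genes called in that average. Black bars are the reported values, gray points are other processing settings and single arrays left out, diamonds are the values as deposited without normalization between arrays, and open symbols have an adjusted p of 0.05 or more. ENO2, SLC2A3 and EGLN1 stay filled throughout, while PFKM and ANKRD37 have several open points.

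The genes were also compared between arrays labelled MEKK1-/- and MEKK1+/+, which asks whether MEKK1 is needed for their level. In untreated cells 0 of 41 members passed an adjusted p of 0.05 by limma, as did 0% of all genes, and 2 members were lower and 1 higher at an unadjusted p of 0.05, where 4.35% of all genes were lower at that level. With TCM 0 members passed, beside 0.00552% of all genes (1 gene), and 1 was lower and 2 higher at the unadjusted level, where 3.65% of all genes were lower. The share of all genes higher at the unadjusted level was not counted in either treatment. The interaction gave 0 called members, 0% of all genes, and 0 members at an unadjusted p of 0.05, beside 2.61% of all genes. Of the 41 estimates 29 were below 0 in untreated cells and 30 with TCM, with medians of -0.09 and -0.07 beside all-gene medians of 0.01 and 0.00. The untreated shift depended on single arrays. Without untreated MEKK1-/- replicate 1 the untreated median was -0.0090 and 22 of the 41 estimates were below 0, and over all single arrays left out the median ran from -0.19 to -0.0090. Apart from that array, leaving out untreated MEKK1+/+ replicate 2 (-0.19) or untreated MEKK1-/- replicate 2 (-0.16), 3 (-0.16) or 4 (-0.15) moved it by over 1.5 times, and leaving out both untreated arrays numbered 2 gave -0.24. With TCM the median ran from -0.12 (without MEKK1+/+ replicate 2) to -0.03 (without MEKK1+/+ replicate 4), and on the values as deposited it was 0.08, where that of all genes was 0.28.

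HIF1A, the oxygen-regulated transcription factor subunit, had the smallest unadjusted p in untreated cells. It had 8.73, 8.33, 8.54 and 8.47 on untreated MEKK1+/+ arrays and 7.83, 8.22, 7.76 and 7.95 on untreated arrays labelled MEKK1-/-. With TCM it had 8.11, 7.81, 8.72 and 8.31 in MEKK1+/+ cells and 7.88, 7.77, 8.13 and 7.98 in cells labelled MEKK1-/-. All 4 untreated arrays labelled MEKK1-/- lay below all 4 of MEKK1+/+, and the groups with TCM overlapped. The untreated log2 difference was -0.57 (standard error 0.16, adjusted p = 0.465 from limma, exact permutation p = 0.0286), and with TCM it was -0.30 (adjusted p = 0.651). HIF1A was called only by the z-test on z-scores, the kind of test the study's methods name (adjusted p = 0.00293, against a range up to 0.902 over the other settings).

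The next members by unadjusted p in untreated cells were CAR9, a membrane carbonic anhydrase, and SLC2A3. CAR9 differed by -0.17 (adjusted p = 0.520 from limma), with 7.18, 6.99, 7.12 and 7.24 on MEKK1+/+ arrays and 7.00, 7.02, 6.94 and 6.88 on arrays labelled MEKK1-/-, mostly under the no-signal level and overlapping. SLC2A3 was 0.31 higher on untreated arrays labelled MEKK1-/- (adjusted p = 0.521), with no overlap between the groups. With TCM the smallest were PFKFB3 (0.23, adjusted p = 0.501), SLC2A3 (0.35, adjusted p = 0.568) and ALDOC (-0.63, adjusted p = 0.605). ALDOC, an aldolase isoform, had 8.57, 8.37, 8.74 and 9.05 on MEKK1+/+ arrays with TCM and 7.64, 8.74, 7.93 and 7.91 on those labelled MEKK1-/-, where replicate 2 alone reached the MEKK1+/+ range.

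**Figure D4:**
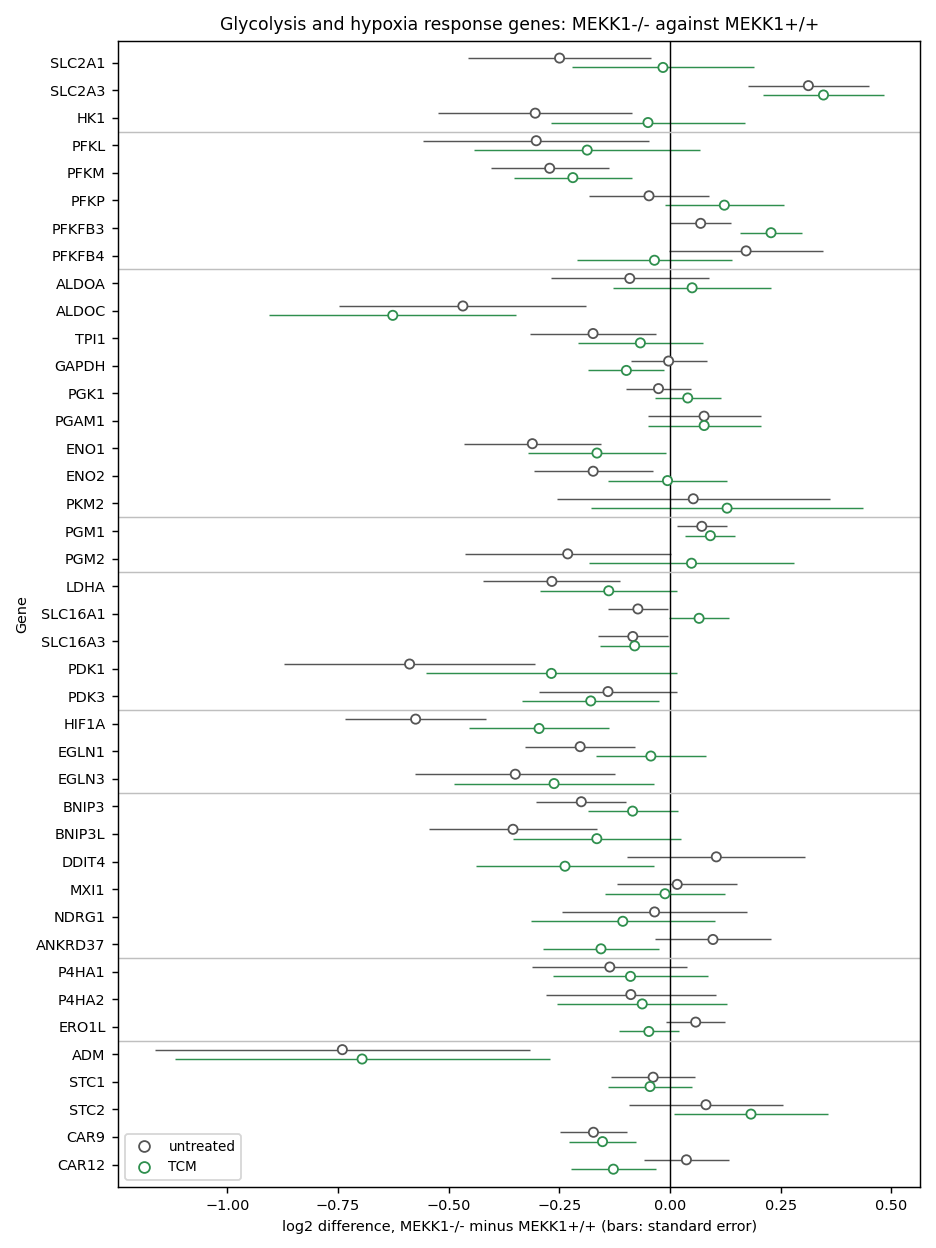
Log2 difference of arrays labelled MEKK1-/- minus MEKK1+/+ for the 41 genes, in untreated cells (gray) and with TCM (green). Points are limma estimates from 4 arrays a group and bars are standard errors, and 0 of the points passed an adjusted p of 0.05. HIF1A in untreated cells lies at -0.57, ADM at -0.74 with a long bar, and SLC2A3 to the right of 0 in both treatments.

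Markers of other cells differed between the genotypes too. Of 19 macrophage markers 17 were lower on arrays labelled MEKK1-/- in each treatment, with a median log2 difference of -0.82 untreated and -0.84 with TCM, though 0 passed the adjusted threshold (8 and 7 at an unadjusted p of 0.05). Their summed intensity ran from 33951 to 86552 on untreated MEKK1+/+ arrays and from 14242 to 70728 on untreated arrays labelled MEKK1-/-, and ITGAM, FCER1G and PTPRC had no signal on any array. The summed epithelial markers ran from 1434 to 1578 and from 1495 to 12135 on the same groups. Of these 10 markers 1 had signal on every array, and KRT5, ELF5 and CSN3 had none on any. Of 9 endothelial markers 8 were higher on untreated arrays labelled MEKK1-/-, summed from 1383 to 2286 beside 1185 to 1360. Of those 9 markers 0 had signal on every array, and KDR and TIE1 had none on any. Between TCM and untreated cells, averaged over genotype, 0 of the 19 macrophage markers had an unadjusted p under 0.05 from limma, and their median log2 difference was -0.03. Of 8 fat cell markers 6 had no signal on any array and 1 had signal on every array. Their summed intensity on MEKK1+/+ arrays ran from 9571 to 14321 untreated and from 5383 to 10948 with TCM. On arrays labelled MEKK1-/- it ran from 4184 to 14184.5 untreated and from 4800 to 7557 with TCM. Averaged over genotype 4 of the 8 were higher with TCM and 4 lower, with a median log2 difference of 0.0009. The part of these cells in the members' genotype or TCM values was not tested, and in such bulk RNA fewer cells of a type and less RNA per cell cannot be told apart.

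Single arrays were the lowest or highest of their group for many of these genes. Of the 29 members with signal on every array, MEKK1+/+ replicate 2 was the lowest of its group for 21 untreated and for 18 with TCM, where it was lowest for 22.0% and 28.7% of all genes with such signal. Untreated MEKK1-/- replicate 1 was the lowest of its group for 22 of the 29, beside 36.8% of all genes with signal. Untreated MEKK1-/- replicate 2 was the highest for 17, beside 24.1%. ADM, the secreted vasodilator adrenomedullin, showed this plainly: its levels were 11.40, 10.50, 11.48 and 11.66 on untreated MEKK1+/+ arrays and 9.77, 11.84, 10.07 and 10.39 on untreated arrays labelled MEKK1-/-. Replicate 2 was lowest in the first group and highest in the other, and the genotype difference of ADM in untreated cells was -0.74 with a standard error of 0.42 (adjusted p = 0.598 from limma). The macrophage sum was lowest on the replicate 2 array in both MEKK1+/+ groups (33951 and 28855) and highest on it in both groups labelled MEKK1-/- (70728 and 61243), and the members' dependence on it was not tested.

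Other genes of the same pathways were counted from lists drawn up beside the members. Of 37 other glucose and glycolysis genes in the table, 1 rose and 3 fell in the average over genotype, beside 6.03% and 6.44% of all genes. Of the 15 of them with signal on every array 2 were called, beside 25.8% of all genes with such signal. SLC2A8, an intracellular glucose transporter, rose by 0.33, while PDHA1 of pyruvate dehydrogenase, PGD of the pentose phosphate pathway and BPGM had averaged log2 differences of -0.43, -0.23 and -0.15, and BPGM had no signal on any array. Of 41 other oxygen sensing and hypoxia response genes 10 rose and 4 fell in the average, beside the same shares of all genes, with a median log2 difference of 0.06. Of the 24 with signal on every array 12 were called, beside 25.8% of all genes with such signal. In MEKK1+/+ cells 6 of the 41 rose (2.27% of all genes) and 0 fell, and in cells labelled MEKK1-/- 4 rose (2.18% of all genes) and 0 fell. ARNT, the partner of HIF1A, rose by 0.47 on average, and VHL, which marks hydroxylated HIF1A for destruction, by 0.27. VEGFA, the angiogenic growth factor, rose by 0.50. The other risers among the 10 with the smallest adjusted p were IER3 (1.19), TPD52 (0.61), INSIG2 (0.60), S100A10 (0.53) and RIOK3 (0.40). EGLN2, the third HIF prolyl hydroxylase, fell by 0.33, and JMJD6 fell by 0.31. Between genotypes 0 genes of either list passed the threshold in untreated cells or with TCM. The table holds BHLHB2, an older symbol of the listed gene BHLHE40 that the rule did not take, and it rose by 0.74 in MEKK1+/+ cells (adjusted p = 0.0317 from limma), by 0.60 on average (adjusted p = 0.00583), and differed by 0.47 in cells labelled MEKK1-/- (adjusted p = 0.202).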

How the data were processed

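The authors deposited a linear intensity for each gene symbol and array, 18132 genes on 16 arrays. Per the labels, a core facility normalized them by a method not given in the sources used here, and how probes of a gene were combined is not given either. Their log2 values were quantile normalized between arrays, and limma 3.58.1 (lmFit, then eBayes, in R 4.3.3) fitted the 4 group means at once (12 residual degrees of freedom). Comparisons were TCM against untreated in each genotype and averaged, genotype in each treatment, and their interaction. Adjusted p values are Benjamini-Hochberg over all genes, with a threshold of 0.05. Exact permutation tests were 2-sided. The average was permuted within genotypes, and its smallest possible p is 0.000408. Precision is limited by the number of arrays. The fit was tested on simulated data. The members and lists were chosen with earlier results of these data known. Values were given per array for members past the threshold in any comparison, for HIF1A, EGLN1, EGLN3, SLC2A1, PFKFB3, LDHA and GAPDH, and, in genotype comparisons, for the 3 members with the smallest unadjusted p. PDK1, HK1, ENO1 and ADM were added after their values were seen.

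Groups came from the labels. Replicate numbers were checked as pairs by correlating, across genes, the deviations of same-numbered untreated and TCM arrays from their group means. In MEKK1-/- these were 0.505, 0.403, 0.219 and 0.251, each over 0.1, and there the numbers were taken as pairs, by this check and not by the labels. In MEKK1+/+ they were -0.04, 0.48, 0.12 and 0.58, and because of replicate 1 the numbers were not taken as pairs. This does not show that they are unpaired. Arrays with different numbers were not correlated, so the level of 0.1 has no reference. The main fit and the exact permutation tests used no pairs in either genotype. The macrophage sums of MEKK1+/+ replicates 1 to 4 were 86552, 33951, 77952 and 59561 untreated. With TCM they were 80143, 28855, 77845 and 60771, in the same order, so pairing in MEKK1+/+ was left undecided. Alternatives were other scalings (as deposited, the same median, z-scores), a z-test on z-scores, array weights, a floor of 64, a pseudocount of 16, a fit of the compared groups alone, the trended and robust form of eBayes, genes above the median level alone, a block for replicate numbers over all arrays or within genotype, each array left out, and, added after the data were seen, both untreated arrays numbered 2 left out. Sequences are from RefSeq for GRCm38.p6.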

Additional observations from a re-analysis of the deposited data

Results flagged for a closer look

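Dixon's test was run on the 4 arrays of each group for 17 genes given per array, 68 groups in all, and 3 held an array whose gap to the others passed the 95% critical value, where chance gives about 1 group in 20. On untreated MEKK1-/- replicate 1 PFKM had a log2 level of 8.94, while its nearest neighbor was 9.47 and the farthest 9.51. On the same array ANKRD37 had 7.90, with the others between 8.42 and 8.49. P4HA2 had 12.89 on MEKK1-/- replicate 2 with TCM, with the others between 12.54 and 12.57.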

How the results depend on the processing

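The averaged rises of ENO2 and SLC2A3 and the averaged fall of EGLN1 were called under all 13 other settings and with each array left out. Without normalization between arrays the median of all genes moved by -0.28 with TCM in MEKK1+/+ cells and by -0.15 on average, and lay at 0.28 between genotypes with TCM and 0.29 in the interaction. As deposited, 2 members were called in MEKK1+/+ cells (1 higher, 1 lower), 1 in cells labelled MEKK1-/- and 3 in the average, and the members' medians were -0.34 in MEKK1+/+ cells, -0.17 in the average, -0.27 between genotypes untreated, 0.08 between genotypes with TCM (reported as -0.07) and 0.39 in the interaction. With the same median on every array the members' medians between genotypes were -0.29 untreated and -0.23 with TCM. The z-test on z-scores called 7 members in cells labelled MEKK1-/- and 2 between untreated genotypes, a fit of only the groups compared called 5 in cells labelled MEKK1-/-, and array weights called 14 in the average. With a replicate block within genotype 9 members were called in MEKK1+/+ cells, where the numbers were not taken as pairs, 6 in cells labelled MEKK1-/- and 15 (11 higher, 4 lower) in the average. The replicate block over all arrays moved no count by over 1.5 times (3, 3 and 10 called), and lost the calls of MXI1 within each genotype. With 1 array left out, 2 to 5 members were called in MEKK1+/+ cells (2 without untreated replicate 3, or without replicate 3 or 4 with TCM), 2 to 5 in cells labelled MEKK1-/- (5 without MEKK1+/+ replicate 2 with TCM) and 8 to 12 in the average, and the untreated genotype median ran from -0.19 to -0.0090, the latter without untreated MEKK1-/- replicate 1. Without both untreated arrays numbered 2, the untreated genotype median was -0.24, 7 members were called in the average, and the averaged calls of PFKM and ANKRD37 were lost. The averaged value of SLC2A1 turned to 0.0267 with z-scores, by either test on them, and to 0.0309 without both untreated arrays numbered 2, and ran from -0.0955 to 0.0824 with single arrays left out. The averaged value of GAPDH turned to 0.10 with z-scores, by either test on them. The cause of these differences was not tested. The shares of all genes called under these settings, or with arrays left out, are not given here. The counts of members called under them therefore have no background to be read against. Signal over background limits what can be said of the 6 members without signal on any array.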
